A study of Mus musculus with 14 samples.

Results

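The replication-type histone genes were taken as all probes whose gene symbol, in the platform annotation, names a clustered H2A, H2B, H3 or H4 gene (H2ac, H2bc, H3c or H4c and a number) or begins with H1-. Of 45281 probes on the array, 78 matched, for 50 genes, and 66 of these, for 47 genes, were detected on at least 3 of the 14 arrays, out of 21100 detected probes in all. The 66 probes are 21 for H2A, 15 for H2B, 13 for H3 and 17 for H4. No symbol begins with H1-, because linker histone genes are named H1f in this annotation, so none of them is a member. The 12 undetected probes include all those of H2ac1, H2ac6 and H2bc1 and further probes of H2bc4, H2bc6, H3c4, H3c7, H3c8, H3c14, H4c2 and H4c8. Of the detected probes, 52 belong to 38 genes on chromosome 13 and 14 to 9 genes on chromosome 3.

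The arrays hold RNA of mouse embryo heads at E8.5, with 5 to 7 somites, on a mixed C57Bl/6 x 129 x BALB/c background. CM-CKO heads (n = 4) carry Twist1flox/del and Mesp1Cre/+, CM-Het heads (n = 3) carry Twist1flox/+ and Mesp1Cre/+, Het heads (n = 3) carry Twist1flox/del and Mesp1+/+, and Control heads (n = 4) carry Twist1flox/+ and Mesp1+/+. Every head therefore has 1 floxed Twist1 allele, and Cre is driven from Mesp1, which marks the early mesoderm, so that neural tissue, neural crest, ectoderm and endoderm of these heads are not its targets. Fewer cells of a type and less RNA per cell cannot be told apart in such tissue. Nothing says that replicates are separate embryos or litters, so p-values measure the spread between these samples, which may be technical. The array descriptions show that beadchip 1 carried every CM-Het and Het sample, beadchip 2 carried CM-CKO 1, CM-CKO 2 and every Control sample, and beadchip 3 carried only CM-CKO 3 and CM-CKO 4.

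Chromatin wraps DNA around an octamer of the core histones H2A, H2B, H3 and H4, in which H3 pairs with H4 and H2A with H2B. The replication-type genes supply these proteins in bulk during S phase, lie in clusters, have no introns and give mRNAs that end in a stem-loop instead of a poly(A) tail. Their transcription is coordinated by NPAT, their stem-loop is bound by SLBP, and both the making and the decay of these mRNAs follow DNA replication. Genes of a class have closely similar coding sequences and the probe sequences were not used here, so the signal of a probe may come from more than 1 gene.

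The promoters of members that results turn on are shown for what neighbouring and duplicated genes share. RefSeq entries (GRCm38.p6) were matched by symbol for 41 of the 47 detected genes, while H2bc6 has several entries and 5 genes have none. Capitals mark 4 sets of letters that were searched on both strands in the 250 bases before each start. These are the TATA box letters TATAAA and the box CCAAT, which reads ATTGG on the other strand. The others are ATTTGCAT, the octamer known from H2B promoters, and GTCCGC, the core of an element known from H4 promoters. The 200 bases before the start of H4c12 (chr13:21750554-21750753, minus strand), of H4c18 (chr13:21832198-21832397, minus strand) and of H2bc18 (chr3:96269500-96269699, plus strand) read as follows.
H4c12: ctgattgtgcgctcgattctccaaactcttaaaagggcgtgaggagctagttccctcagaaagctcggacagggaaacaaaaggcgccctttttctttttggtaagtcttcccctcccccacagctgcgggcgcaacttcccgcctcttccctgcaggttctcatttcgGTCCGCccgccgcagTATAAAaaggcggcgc
H4c18: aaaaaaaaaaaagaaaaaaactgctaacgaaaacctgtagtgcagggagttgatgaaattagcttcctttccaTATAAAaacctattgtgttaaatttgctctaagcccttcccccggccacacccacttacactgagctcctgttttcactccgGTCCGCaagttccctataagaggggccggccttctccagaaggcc
H2bc18: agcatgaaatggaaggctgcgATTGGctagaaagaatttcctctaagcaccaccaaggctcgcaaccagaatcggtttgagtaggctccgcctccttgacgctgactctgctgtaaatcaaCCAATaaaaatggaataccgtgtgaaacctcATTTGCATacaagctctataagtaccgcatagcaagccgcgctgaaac
The bases between the starts of H2ac12 and H2bc12 (chr13:22035644-22035820, plus strand) and of H2ac15 and H2bc15 (chr13:21753913-21754075, plus strand), which are transcribed away from each other, read as follows.
H2ac12-H2bc12: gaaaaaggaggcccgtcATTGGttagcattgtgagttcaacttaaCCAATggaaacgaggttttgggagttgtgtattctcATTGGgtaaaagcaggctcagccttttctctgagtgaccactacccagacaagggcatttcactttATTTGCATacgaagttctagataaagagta
H2ac15-H2bc15: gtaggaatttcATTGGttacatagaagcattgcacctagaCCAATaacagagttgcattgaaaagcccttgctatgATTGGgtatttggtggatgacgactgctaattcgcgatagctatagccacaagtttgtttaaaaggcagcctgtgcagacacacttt
GTCCGC was found before 8 of 11 H4 genes (72.7%), 5 of 14 H2A genes, 1 of 9 H2B genes and 0 of 7 H3 genes, against 7.42% of all 32851 promoters. ATTTGCAT was found before 5 of 9 H2B and 4 of 14 H2A genes and before no H3 or H4 gene, against 1.6% of all promoters. CCAAT was found before 14 of 14 H2A, 9 of 9 H2B, 6 of 7 H3 and 3 of 11 H4 genes, against 33.8% of all promoters. TATAAA was found at any place in the window before 18 of the 41 members (43.9%), against 12.4%. It begins 16 bases before the start of H4c12 and 127 bases before that of H4c18. The windows before H4c17 and H4c18 share an unbroken run of 249 of 250 bases, those before H2ac18 and H2ac19 a run of 169, and those before H4c11 and H4c12 a run of 72. H4c9 shares 38 bases in a row with each of H4c17 and H4c18. The windows of 5 H2A and H2B pairs with 163 to 248 bases between starts overlap, so 1 copy can count for both genes. GTCCGC in the run shared by H4c17 and H4c18 likewise counts for each of them.

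The arrays were comparable in signal and detection. Median raw intensity was 107 to 116 on beadchip 1, 92.3 to 109 on beadchip 2 and 107 to 112 on beadchip 3, and 18242 to 19455 probes were detected on an array. Twist1, the targeted gene, had a mean log2 signal of 7.75 ± 0.14 in CM-CKO, 8.65 ± 0.14 in CM-Het, 8.60 ± 0.12 in Het and 9.32 ± 0.20 in Control heads (SD, n as above), and CM-CKO lay below Control (log2 -1.56, limma adjusted p = 1.06e-07). Markers of tissues of the head were detected, 11 of 14 for neural tube, 12 of 14 for head mesenchyme and 8 of 9 for neural crest. Heart muscle markers, 14 of 16 detected (Tnnt2 and Smpx have no named probe), differed widely between arrays: their summed linear signal was 2656 to 15017 in CM-CKO, 3341 to 4352 in CM-Het, 2962 to 10061 in Het and 3825 to 24512 in Control heads. Summed signal of the 7 detected yolk sac endoderm markers of 10 (Afp, Apoa4 and Cubn were not detected) was 209 to 583, 312 to 511, 217 to 544 and 342 to 2562 in the same order.

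Loss of Twist1 from mesoderm was compared with each of the other genotypes for the 66 histone probes. In CM-CKO against Control heads no histone probe passed the test, where 0.422% of all probes did, and the median difference was 0.07 on the log2 scale (all probes 0.01). By class the medians were 0.02 for H2A, 0.19 for H2B, 0.07 for H3 and 0.12 for H4. All 15 H2B probes had a difference above 0, up to 0.61, against 52.1% of all probes. At an unadjusted p under 0.05 stood 4 higher and 1 lower of the 66, against 5.55% and 5.27% of all probes. On beadchip 2 alone, with CM-CKO 1 and 2, the median was 0.04 and again none passed.

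H2bc18, an H2B gene of the chromosome 3 cluster, had the highest difference from Control in CM-CKO heads. Its log2 signals on probe ILMN_2817214 were 5.34, 5.48, 5.43 and 5.05 in CM-CKO heads, 6.50, 5.57 and 5.31 in CM-Het heads, 5.77, 5.78 and 6.05 in Het heads and 4.94, 4.84, 4.57 and 4.53 in Control heads. Control heads lay below every other array, and the probe was detected on 2 of the 4. CM-CKO exceeded Control by 0.61 (SE 0.20), which did not pass the test (limma adjusted p = 0.255). Next came H2ac19 and H2ac18, both H2A genes of the same cluster, at 0.46 and 0.44 (limma adjusted p = 0.376 and 0.469). The lowest were H2ac22, an H2A gene of chromosome 13, at -0.13, H2ac18 on its probe ILMN_1228849 at -0.12 and H4c17 at -0.09, none of which passed (limma adjusted p = 0.359, 0.825 and 0.958). H2ac22 read 13.22, 13.30, 13.11 and 13.18 in CM-CKO heads, 13.29, 13.25 and 13.20 in CM-Het heads, 13.12, 13.25 and 13.31 in Het heads and 13.43, 13.27, 13.34 and 13.32 in Control heads, and its highest array was Control 1.

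Against Het heads, which share both Twist1 alleles with CM-CKO heads but lack Cre, 54 of the 66 probes were lower in value in CM-CKO (49.3% of all probes), with a median of -0.34 against 0.00. None passed the test, where 0.166% of all probes did, and 31 were below 0 at an unadjusted p under 0.05, against 4.55% of all probes. The arrays of CM-CKO lay wholly below those of Het for 24 of 66, against 4.58%. All 17 H4 probes were below 0, with a median of -0.62, followed by H2B at -0.40, H3 at -0.26 and H2A at -0.05. The H2A value is held near 0 by 12 probes close to the top of the scale, described further on, and the other 9 H2A probes had a median of -0.18. The smallest adjusted p was that of H2bc21 on probe ILMN_1253851 (log2 -0.64, SE 0.15, limma adjusted p = 0.124).

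Against CM-Het heads, which share Cre but keep the wild-type allele, 53 of 66 probes were lower in value in CM-CKO (49.3% of all probes), with a median of -0.30 against 0.00. Again none passed, where 0.147% of all probes did, and 26 were below 0 at an unadjusted p under 0.05 against 6.09%. CM-CKO arrays lay wholly below CM-Het arrays for 13 of 66, against 5.90%. By class the medians were -0.60 for H4, -0.33 for H2B, -0.15 for H3 and -0.02 for H2A, and -0.25 for the 9 H2A probes away from the top of the scale, 7 of them below 0. Without CM-Het 1 the median shrank to -0.09. Both comparisons set arrays of beadchips 2 and 3 against beadchip 1, so genotype and beadchip cannot be told apart in them.

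The lowest values in both comparisons were those of H4c18 and H4c17, duplicated H4 genes on chromosome 13. H4c18 on probe ILMN_2597653 read 7.83, 6.74, 7.90 and 7.93 in CM-CKO heads, 9.27, 8.51 and 8.38 in CM-Het heads, 8.41, 9.27 and 8.29 in Het heads and 7.56, 8.29, 8.10 and 6.21 in Control heads. H4c17 on its probe ILMN_1246576 read 7.60, 6.30, 7.95 and 7.65 in CM-CKO heads, 8.91, 8.38 and 8.04 in CM-Het heads, 8.24, 8.97 and 8.08 in Het heads and 7.35, 8.31, 8.01 and 6.21 in Control heads. CM-CKO 2 and Control 4 were low on both probes, while Control 2 came up to the lowest beadchip 1 arrays. H4c18 differed by -1.06 from Het and -1.12 from CM-Het, and H4c17 by -1.06 and -1.07, with limma adjusted p between 0.308 and 0.493. H4c6 on ILMN_1230265 followed against Het (log2 -0.95, SE 0.31, limma adjusted p = 0.348) and H2bc12 on ILMN_2636781 against CM-Het (log2 -0.80, SE 0.21, limma adjusted p = 0.144).

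The 3 highest values against Het were those of dim probes of H3c7, H3c8 and H2bc21, and the 3 highest against CM-Het were those of H3c7, H2ac18 and H2bc21. H3c7 on ILMN_2925169 read 6.75, 5.87, 6.30 and 6.52 in CM-CKO heads, 5.27, 5.94 and 6.57 in CM-Het heads, 5.54, 6.60 and 5.19 in Het heads and 5.93, 6.51, 6.91 and 5.98 in Control heads, with wide overlap of all genotypes. H3c8, another H3 gene, read 5.49, 5.33, 5.53 and 5.51 in CM-CKO heads, 5.96, 5.53 and 5.34 in CM-Het heads, 4.85, 5.37 and 5.43 in Het heads and 5.16, 5.78, 5.30 and 5.35 in Control heads on its only detected probe, again overlapping. H2bc21 on ILMN_1231066 read 5.79, 5.43, 5.67 and 5.65 in CM-CKO heads, 5.51, 5.47 and 5.18 in CM-Het heads, 5.33, 5.12 and 5.73 in Het heads and 5.67, 5.77, 5.50 and 5.35 in Control heads, with overlap of all genotypes. H2ac18 on ILMN_1228849 read 4.65, 5.13, 5.24 and 4.53 in CM-CKO heads, 4.64, 4.53 and 4.67 in CM-Het heads, 4.95, 4.70 and 4.84 in Het heads and 4.74, 5.20, 4.90 and 5.19 in Control heads, and it was not above background on any CM-Het array. None of their differences from Het or CM-Het passed the test, and the highest was 0.58 for H3c7 against Het (limma adjusted p = 0.712).

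CM-Het heads stood above Control heads for 54 of the 66 histone probes (50.3% of all probes), with a median of 0.42 against 0.00. Here 6 probes, 4 of H2B and 1 each of H3 and H4, were higher at a limma adjusted p under 0.05, where 0.294% of all probes were higher, and 36 were above 0 at an unadjusted p under 0.05, against 8.97%. Cre at Mesp1 and beadchip both differ between these genotypes and cannot be told apart. CM-Het arrays lay wholly above Control arrays for 22 of 66, against 8.27% of all probes.

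H2bc6, an H2B gene on chromosome 13, read 8.74, 8.85, 9.14 and 8.80 in CM-CKO heads, 9.41, 9.07 and 9.25 in CM-Het heads, 9.13, 9.33 and 9.47 in Het heads and 8.66, 8.48, 8.74 and 8.82 in Control heads on ILMN_1252995. Beadchip 1 arrays were above the Control arrays throughout, and CM-CKO 3 reached into their range. CM-Het exceeded Control by 0.57 (SE 0.11, limma adjusted p = 0.0403). The other detected H2bc6 probe, ILMN_2742592, differed by 0.46 and did not pass (limma adjusted p = 0.188).

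H2bc12, the H2B gene that starts beside H2ac12, read 7.81, 7.89, 8.04 and 7.68 in CM-CKO heads, 9.03, 8.46 and 8.48 in CM-Het heads, 8.08, 8.63 and 9.33 in Het heads and 7.55, 7.73, 7.54 and 7.45 in Control heads on ILMN_2636781. All 6 arrays of beadchip 1 lay above all 8 others, the closest being Het 1 and CM-CKO 3. CM-Het was 2.13-fold above Control (log2 1.09, SE 0.21, limma adjusted p = 0.035). On the other H2bc12 probe, ILMN_2655785, the difference was 0.19 (limma adjusted p = 0.399).

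H2bc18 on the probe given above was higher in CM-Het than in Control (log2 1.07, SE 0.22, limma adjusted p = 0.0403), where 2 of 4 Control arrays were not above background, so that no fold is given. H2bc21, an H2B gene of chromosome 3, read 9.20, 9.26, 9.65 and 9.29 in CM-CKO heads, 10.42, 9.64 and 9.74 in CM-Het heads, 9.85, 10.11 and 10.03 in Het heads and 9.22, 9.01, 9.31 and 9.09 in Control heads on ILMN_1253851. CM-Het 1 was the highest array, and CM-CKO 3 lay just above CM-Het 2. CM-Het exceeded Control by 0.78 (SE 0.15, limma adjusted p = 0.0381), whereas the dim H2bc21 probe differed by -0.18.

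H3c7, an H3 gene on chromosome 13, read 9.68, 9.64, 9.98 and 9.77 in CM-CKO heads, 10.63, 9.99 and 10.17 in CM-Het heads, 9.97, 10.47 and 10.43 in Het heads and 9.57, 9.54, 9.64 and 9.65 in Control heads on ILMN_2748164. The Control arrays lay close together and below all arrays of the other genotypes except CM-CKO 2. CM-Het exceeded Control by 0.66 (SE 0.13, limma adjusted p = 0.0403), while the dim H3c7 probe lay at -0.41.

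H4c12, the H4 gene whose promoter is shown above, read 6.76, 7.08, 6.61 and 6.79 in CM-CKO heads, 8.26, 7.17 and 7.24 in CM-Het heads, 7.29, 8.07 and 7.82 in Het heads and 6.57, 6.71, 6.31 and 6.31 in Control heads on ILMN_2525570. Every array of beadchip 1 was above every other array, and CM-Het 1 and Het 2 were highest. CM-Het was 2.12-fold above Control (log2 1.08, SE 0.23, limma adjusted p = 0.0444). The second H4c12 probe, ILMN_1243654, read 6.94, 7.04, 7.10 and 6.77 in CM-CKO heads, 8.49, 7.18 and 6.98 in CM-Het heads, 7.56, 7.94 and 7.95 in Het heads and 6.68, 6.88, 6.62 and 6.19 in Control heads, and its difference of 0.96 did not pass (limma adjusted p = 0.0924).

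**Figure D1:**
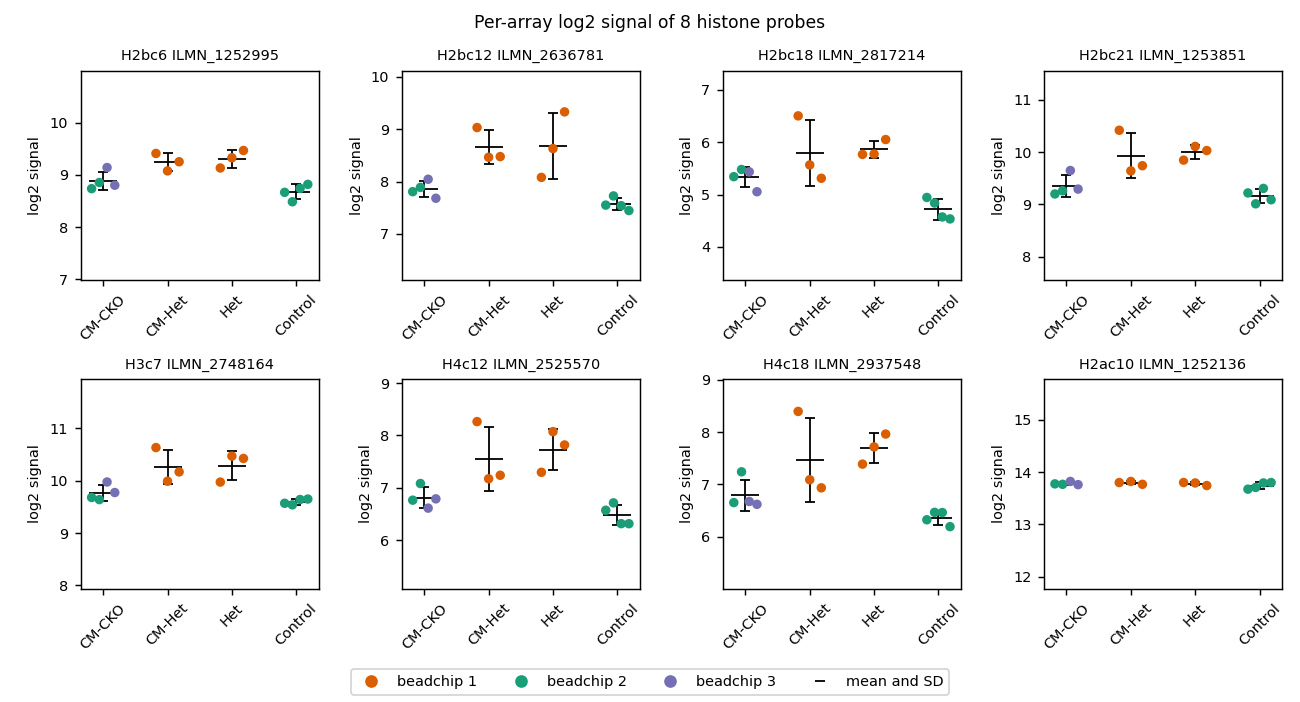
Log2 signal of 8 histone probes on each array, by genotype from CM-CKO to Control, with points coloured by beadchip and bars giving the mean and SD. CM-Het and Het arrays stand above Control arrays for the 6 probes called in that comparison and for H4c18, while the H2A probe of H2ac10 stays between 13.67 and 13.82, with the same span of log2 units in every panel.

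These 6 calls depended on the arrays used: none of the 66 probes passed without CM-Het 1, without CM-Het 2, without CM-Het 3, without Het 2 or without any 1 of the 4 Control arrays, and 3 passed without CM-CKO 4. The 6 probes kept their direction in each of these fits. With 1 array left out at a time, 0 to 101 of all 21100 probes passed in this comparison in either direction, where 103 did with every array. With the replicate number as a block, 0 of the 66 passed, and the count over all probes in that fit is not given.

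Het heads, which share Control's lack of Cre, stood above Control for 55 of 66 probes (50.8% of all probes), with a median of 0.44 against 0.00. No histone probe passed in limma, as no probe of any gene did (0.00% of all), while 36 were above 0 at an unadjusted p under 0.05, against 7.76% of all probes. The smallest limma adjusted p was 0.0690, shared by 7 probes of H2bc6, H2bc12, H2bc18, H2bc21, H3c7, H4c12 and H4c18. Het arrays lay wholly above Control arrays for 28 of 66, against 6.74%. CM-Het and Het, which share beadchip 1, differed by a median of -0.03, and no probe of any gene passed (0.00%), with 2 of 66 histone probes and 3.82% of all probes at an unadjusted p under 0.05.

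Markers of several cell types were lower in value in CM-Het and Het than in Control heads, opposite in direction to most histone probes. All 14 detected heart muscle genes had a difference below 0, with a median of -1.20 for CM-Het and -0.99 for Het, and none passed the test (4 and 3 at an unadjusted p under 0.05, against 7.49% and 5.78% of all probes on that side). All 7 yolk sac endoderm genes were below 0 as well, with medians of -0.57 and -0.70, and of 13 endothelium genes 13 and 11 were, with medians of -0.25 and -0.05. Of 12 head mesenchyme genes 11 and 12 were below 0, with medians of -0.37 and -0.34, and 2 and 0 passed. Of all 21100 probes, 103 and 0 passed in either direction. The head mesenchyme list includes Twist1 itself, which passed in CM-Het against Control (log2 -0.66, limma adjusted p = 0.0261). Primitive erythroid markers had 6 of 10 below 0 in both, neural tube markers 6 and 4 of 11, and neural crest markers 7 and 3 of 8. The part of all these markers in the histone values was not tested.

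Cre averaged over the second Twist1 allele gave a histone median of 0.03, and the deleted allele averaged over Cre gave 0.05. No histone probe passed in either, where 0.185% and 0.0664% of all probes did, and 2 and 4 of 66 stood at an unadjusted p under 0.05, against 6.67% and 7.03% of all probes. A shift between beadchips 1 and 2 cancels in these averages.

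The interaction, (CM-CKO minus CM-Het) minus (Het minus Control), held most of the histone calls. It asks whether Cre and the deleted allele act additively, and a shift of beadchip 1 against the other beadchips enters it 2 times over with the sign turned, so interaction and beadchip cannot be told apart. Of the 66 probes 54 were below 0 (49.5% of all probes), with a median of -0.78 against 0.00 for all probes. At a limma adjusted p under 0.05, 18 were below 0 and 0 above, where 1.11% and 0.336% of all probes were. The count of 18 moved with the settings. Of the 66 probes 5 passed with the replicate block (0.46% of all probes), 6 with CM-CKO arrays of beadchip 3 only (0.251%) and 10 with those of beadchip 2 only (1.16%). With the brightest probe of each gene 9 of 47 passed, against 1.00% of all genes. With median scaling in place of quantile normalization 37 passed (2.74% of all probes), and with beadchip as a random block 38 (6.41%), where the estimated correlation within beadchips was -0.0501. This block cannot take a beadchip shift out of the interaction, since no genotype lies both on beadchip 1 and on another beadchip. By class, 8 of 17 H4, 7 of 15 H2B, 1 of 13 H3 and 2 of 21 H2A probes passed. The medians were -1.43 for H4, -0.99 for H2B, -0.29 for H3 and -0.06 for H2A, and all 17 H4 probes lay below 0. The 9 H2A probes away from the top of the scale had a median of -0.35, with 7 below 0 and 2 passing. Outside the 12 bright H2A probes, the median was -1.01 over 41 probes of chromosome 13 and -0.86 over 13 probes of chromosome 3.

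**Figure D2:**
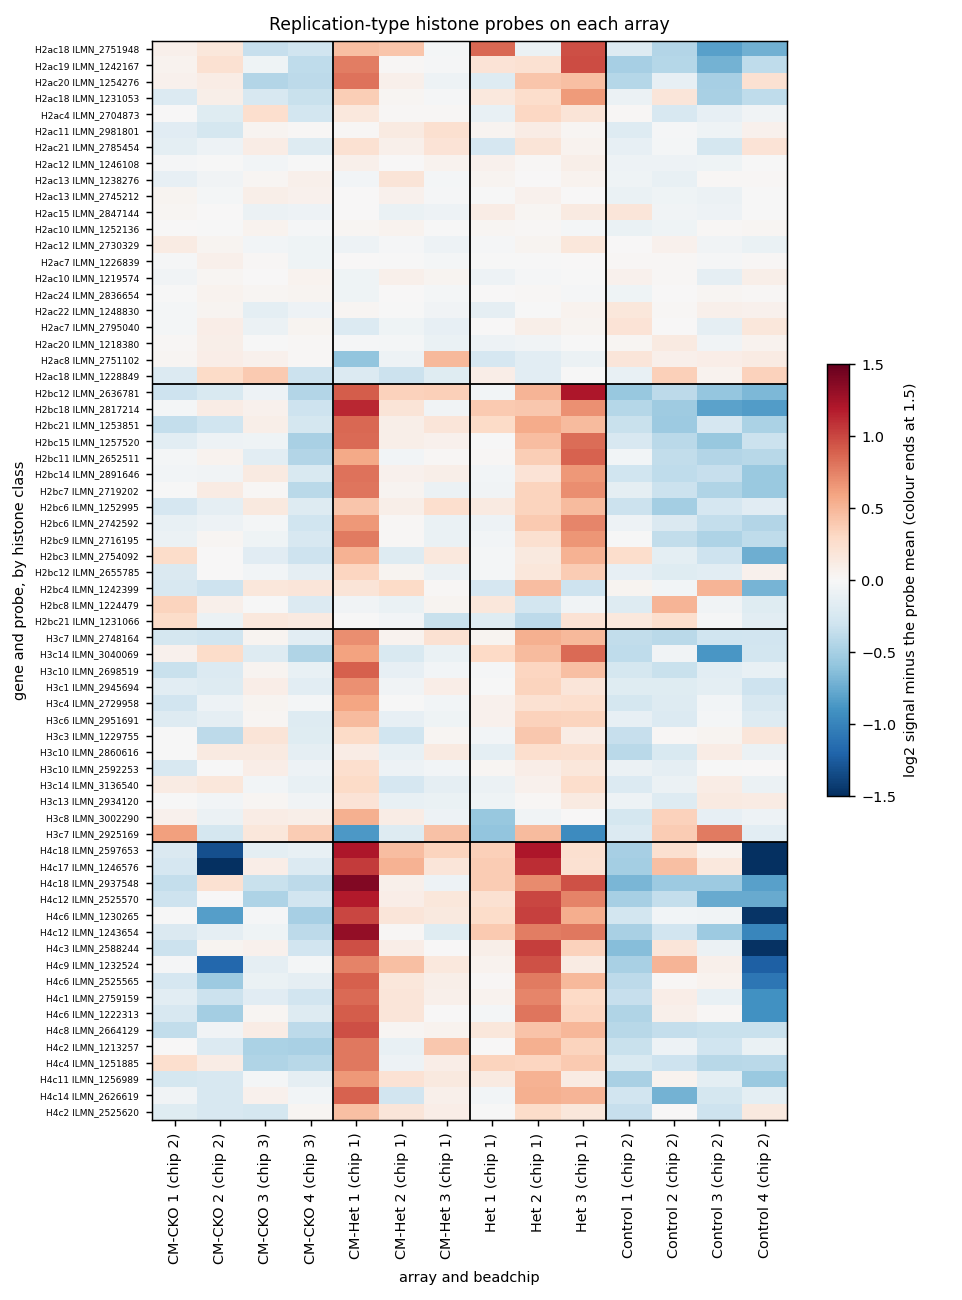
Log2 signal of each of the 66 histone probes minus its mean over 14 arrays, with arrays across in the order CM-CKO, CM-Het, Het and Control and probes down by class and by interaction difference. Colour is cut at 1.5 log2 units either way. Most H2B, H3 and H4 rows are highest on CM-Het 1, Het 2 and Het 3, most H2A rows are pale, and several H4 rows are lowest on CM-CKO 2 and Control 4.

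In equal weights of the genotypes, beadchip 1 arrays differed from those of beadchips 2 and 3 by the interaction divided by 2 with its sign turned. H4c18 on ILMN_2937548 read 6.65, 7.24, 6.67 and 6.62 in CM-CKO heads, 8.40, 7.09 and 6.93 in CM-Het heads, 7.39, 7.72 and 7.96 in Het heads and 6.32, 6.47, 6.46 and 6.19 in Control heads. CM-Het 1 stood far above the other CM-Het arrays, and CM-CKO 2 stood above the other CM-CKO arrays. Its interaction was -2.00 (SE 0.37, limma adjusted p = 0.0162), a beadchip 1 signal 2.00-fold above that of beadchips 2 and 3. The largest interaction in size, -2.24 for the other H4c18 probe, missed the threshold (limma adjusted p = 0.056), as did H4c17 at -2.03 (0.0869).

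Among H4 genes, H4c12 passed on both probes, at -2.00 and -1.81 (limma adjusted p = 0.00765 and 0.0248). H4c6 on ILMN_1230265 read 7.42, 6.61, 7.41 and 6.93 in CM-CKO heads, 8.43, 7.60 and 7.58 in CM-Het heads, 7.70, 8.46 and 7.97 in Het heads and 7.16, 7.39, 7.38 and 5.96 in Control heads. Beadchip 1 arrays were all above the others, and Control 4 was lowest. Its interaction was -1.85 (limma adjusted p = 0.0425), and its other probes, ILMN_2525565 and ILMN_1222313, reached -1.43 and -1.27 without passing.

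H4c1 read 9.87, 9.71, 9.85 and 9.73 in CM-CKO heads, 10.87, 10.20 and 10.10 in CM-Het heads, 10.08, 10.76 and 10.32 in Het heads and 9.68, 10.12, 9.91 and 9.12 in Control heads. Control 2, at 10.12, overlapped beadchip 1, and Control 4 was lowest. H4c11 read 7.94, 7.96, 8.18 and 8.07 in CM-CKO heads, 8.85, 8.42 and 8.34 in CM-Het heads, 8.33, 8.72 and 8.33 in Het heads and 7.72, 8.25, 8.06 and 7.65 in Control heads, with all beadchip 1 arrays above the rest. Their interactions were -1.28 and -1.04 (limma adjusted p = 0.036 and 0.0265).

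H4c8 read 6.26, 6.58, 6.74 and 6.24 in CM-CKO heads, 7.60, 6.66 and 6.69 in CM-Het heads, 6.80, 7.06 and 7.13 in Het heads and 6.21, 6.27, 6.30 and 6.30 in Control heads. CM-Het 1 was highest, and CM-CKO 3 reached the lowest beadchip 1 arrays. H4c2 on ILMN_1213257 read 6.23, 6.03, 5.76 and 5.75 in CM-CKO heads, 7.02, 6.12 and 6.63 in CM-Het heads, 6.24, 6.76 and 6.56 in Het heads and 5.89, 6.15, 5.93 and 6.13 in Control heads, where CM-CKO 1, Control 2 and Control 4 lay above CM-Het 2. The interactions were -1.26 and -1.15 (limma adjusted p = 0.0323 and 0.0421), and the other H4c2 probe, ILMN_2525620, lay at -0.68 without passing.

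Among H2B genes, the 4 probes given above passed again: H2bc12 at -1.92, H2bc18 at -1.61, H2bc21 at -1.42 and H2bc6 at -0.99 (limma adjusted p = 0.0066 to 0.0194). H2bc15, which starts beside H2ac15, read 8.43, 8.51, 8.52 and 8.11 in CM-CKO heads, 9.44, 8.68 and 8.65 in CM-Het heads, 8.58, 9.05 and 9.43 in Het heads and 8.34, 8.18, 8.02 and 8.27 in Control heads. All beadchip 1 arrays lay above the others, by the least between Het 1 and CM-CKO 3. H2bc14 read 8.12, 8.10, 8.29 and 7.93 in CM-CKO heads, 8.97, 8.22 and 8.24 in CM-Het heads, 8.12, 8.36 and 8.81 in Het heads and 7.86, 7.77, 7.81 and 7.59 in Control heads, and H2bc11 read 9.42, 9.51, 9.29 and 9.02 in CM-CKO heads, 10.03, 9.41 and 9.47 in CM-Het heads, 9.48, 9.82 and 10.34 in Het heads and 9.41, 9.08, 9.02 and 9.04 in Control heads. On both, CM-CKO arrays reached the lowest beadchip 1 arrays while CM-Het 1, Het 2 and Het 3 stood clear of them. The interactions of H2bc15, H2bc14 and H2bc11 were -1.35, -1.04 and -1.07 (limma adjusted p = 0.0245, 0.0421 and 0.0428).

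The brightest H2B probe, that of H2bc7, read 9.88, 10.01, 9.90 and 9.48 in CM-CKO heads, 10.69, 9.92 and 9.80 in CM-Het heads, 9.83, 10.22 and 10.59 in Het heads and 9.75, 9.56, 9.43 and 9.33 in Control heads. Its interaction of -1.01 did not pass (limma adjusted p = 0.0664). H3c7 on ILMN_2748164 was the H3 probe that passed (log2 -1.19, SE 0.19, limma adjusted p = 0.00765). The brightest H3 probe, that of H3c13, read 11.52, 11.49, 11.56 and 11.47 in CM-CKO heads, 11.73, 11.42 and 11.43 in CM-Het heads, 11.47, 11.55 and 11.66 in Het heads and 11.45, 11.34, 11.66 and 11.66 in Control heads, and no genotype stood apart (interaction -0.05, limma adjusted p = 0.883).

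Both H2A genes that passed lie in the chromosome 3 cluster and share promoter sequence. H2ac18 on ILMN_2751948 read 5.17, 5.26, 4.75 and 4.79 in CM-CKO heads, 5.54, 5.51 and 5.06 in CM-Het heads, 5.96, 5.01 and 6.05 in Het heads and 4.90, 4.66, 4.28 and 4.37 in Control heads, and H2ac19 read 7.60, 7.77, 7.47 and 7.16 in CM-CKO heads, 8.31, 7.55 and 7.53 in CM-Het heads, 7.75, 7.77 and 8.52 in Het heads and 7.04, 7.11, 6.84 and 7.16 in Control heads. Control 3 was lowest and Het 3 highest on both, and CM-CKO arrays overlapped those of CM-Het and Het. Their interactions were -1.50 and -1.27 (limma adjusted p = 0.0323 and 0.0372). The H2ac18 signal was near background, detected on 1 of 4 Control arrays, and the other H2ac18 probes lay at -0.84 and 0.45.

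**Figure D3:**
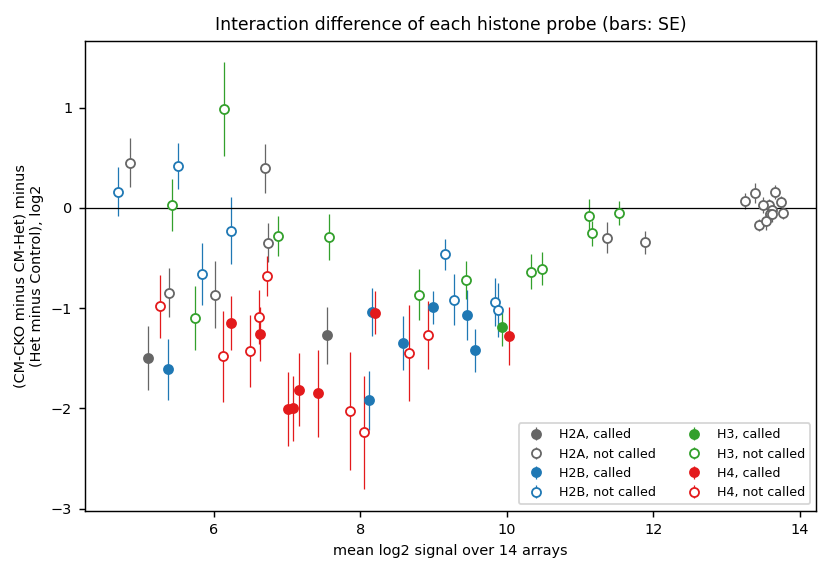
Interaction difference of each detected histone probe on the log2 scale, with its SE, against its mean log2 signal over 14 arrays, coloured by class and filled where the limma adjusted p was under 0.05. The 12 H2A probes above a mean of 13 lie between -0.17 and 0.16, and H4 and H2B probes at middle signal reach the lowest values.

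For 12 of the 21 H2A probes these arrays showed little change, as for probes of other genes of that brightness. The 12 H2A probes with a mean log2 signal above 13, for H2ac7, H2ac10, H2ac12, H2ac13, H2ac15, H2ac20, H2ac22 and H2ac24, spanned a median range of 0.23 over the 14 arrays, against 1.26 for the other 54 histone probes. This level of 13 was picked with the values in view. The 258 probes of other genes above 13 had a median range of 0.27, so the narrow range says nothing particular to H2A. The highest log2 signal was 13.96 on every array because quantile normalization makes it equal, which shows no ceiling by itself. The highest raw intensity was 12780 to 17450, and whether saturation limits these probes was not tested. H2ac10, the brightest, read 13.78, 13.77, 13.82 and 13.76 in CM-CKO heads, 13.80, 13.82 and 13.77 in CM-Het heads, 13.80, 13.79 and 13.74 in Het heads and 13.67, 13.71, 13.79 and 13.80 in Control heads on ILMN_1252136. No array and no genotype stood apart. With median scaling in place of quantile normalization the median range was 0.46, against 0.48 for the other bright probes.

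H2A and H2B genes that start beside each other can be set side by side. Among 5 pairs of an H2A and an H2B gene with both detected and 163 to 248 bases between their starts, the H2B partner passed in 3 and no H2A partner did. For H2bc12 and H2ac12 the interactions were -1.92 and -0.46 on the H2B probes and -0.02 and -0.17 on the H2A probes. For H2bc15 and H2ac15 they were -1.35 and -0.06, and for H2bc11 and H2ac11 -1.07 and -0.34. The pair of H2bc8 and H2ac8 lay at 0.16 and 0.39, and H2bc7 at -1.01 beside H2ac7 at 0.03 and 0.15. The difference between partners was not tested. In 3 of these pairs (H2ac12, H2ac15 and H2ac7) the H2A probes are among the bright ones, where probes of other genes varied little too.

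**Figure D4:**
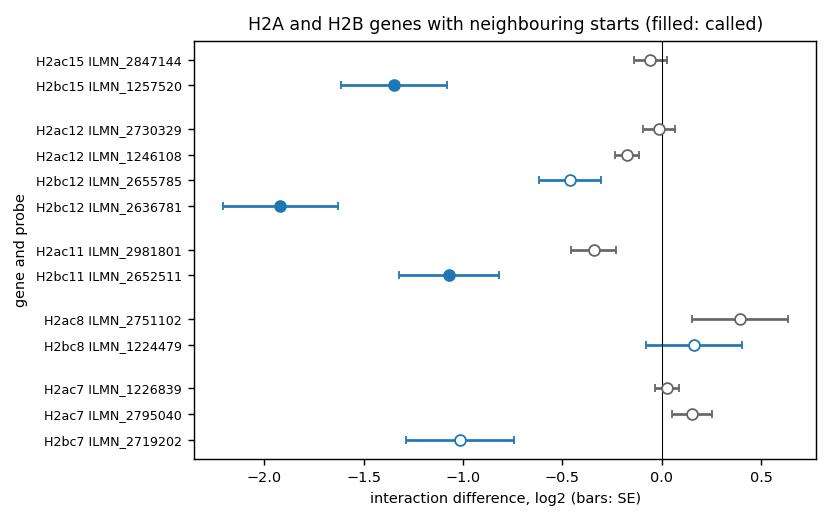
Interaction difference on the log2 scale, with its SE, for every detected probe of the 5 pairs of H2A and H2B genes that start beside each other, one pair per block, filled where called. H2B probes of 3 pairs are called between -1.92 and -1.07, and H2A probes lie between -0.34 and 0.39.

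Probes of 1 gene did not always go together. Of 16 genes with several detected probes, 1 had all of them called in the interaction, 8 had some, 7 had none, and 5 had values of both signs. The widest gaps were those of H3c7 (-1.19 and 0.99), H2ac18 (-1.50 to 0.45) and H2bc21 (-1.42 and 0.42), and the closest among called genes was H2bc6 (-0.99 and -0.94).

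H4 probes differed in how arrays of a genotype varied. Deviations from the genotype mean over the 14 arrays correlated at 0.98 between H4c17 and H4c18 on ILMN_2597653, and at 0.97 between each of these and H4c9. H4c9 read 8.65, 7.48, 8.52 and 8.62 in CM-CKO heads, 9.41, 9.11 and 8.82 in CM-Het heads, 8.71, 9.62 and 8.78 in Het heads and 8.17, 9.17, 8.74 and 7.43 in Control heads, and CM-CKO 2 and Control 4 were again lowest. The other H4c18 probe correlated at 0.90 and 0.87 with the H4c12 probes and at 0.21 with the first H4c18 probe. These correlations are descriptions across 14 arrays that share RNA, chips and normalization.

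**Figure D5:**
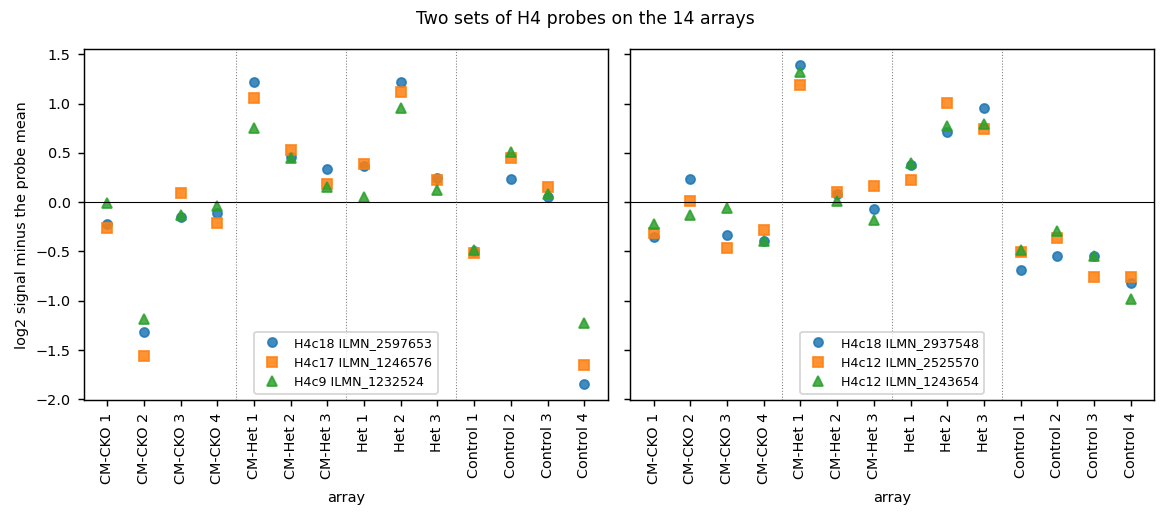
Log2 signal minus the probe mean on each array, in the order CM-CKO, CM-Het, Het and Control, for H4c18 (ILMN_2597653), H4c17 and H4c9 on the left and for the other H4c18 probe and both H4c12 probes on the right. CM-CKO 2 and Control 4 lie lowest on the left, and on the right all Control arrays lie below 0.

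The excess on beadchip 1 was uneven. The median deviation of the 66 probes from their means was 0.53 on CM-Het 1, 0.31 on Het 2 and 0.26 on Het 3, against 0.03, 0.01 and 0.01 on CM-Het 2, CM-Het 3 and Het 1. On beadchips 2 and 3 it ran from -0.17 to 0.01 in CM-CKO and from -0.21 to -0.08 in Control heads. All arrays of beadchip 1 lay above all others for 7 of 66 probes (of H2ac12, H2bc12, H2bc15, H4c6, H4c11, H4c12 and H4c18), against 0.697% of all probes. Without CM-Het 1, Het 2 and Het 3, chosen after the values were seen, the interaction median was -0.30. Het 1 was the only Het array in that fit, so no count of calls is given. With 1 array left out at a time, 8 passed without CM-Het 1 (median -0.56), without Het 2 and without Het 3. Of all probes 0.322%, 0.389% and 0.692% passed in these fits. Between 12 and 16 passed without any of the others, against 0.412% to 1.27% of all probes. Within CM-CKO, beadchip 3 against beadchip 2 gave a histone median of 0.01 with none passing, as no probe of any gene did (0.00%), and 2 of 66 histone probes and 6.07% of all probes at an unadjusted p under 0.05.

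Genes that act on histone mRNA or in the cell cycle were put to the same test. In the interaction 305 of all 21100 probes passed, a share at which lists this short hold few calls or none. Of 21 detected genes listed under stem-loop processing, none passed in the interaction, and the median was 0.06. This list holds Lsm10 and Lsm11 of the U7 particle and, though it acts in transcription, Npat (Slbp and Casp8ap2 were not detected). None of 12 genes of histone transcription, 10 of replacement histones such as H2az1 and H3f3a, and 21 of histone chaperones passed, with medians of 0.03, -0.06 and 0.02. At an unadjusted p under 0.05 stood 3 genes of stem-loop processing and 2 of each of the other 3 lists, where 17.3% of all probes did. Of 34 S phase genes 1 passed, the helicase subunit Mcm7 (log2 -0.59, limma adjusted p = 0.0249), with a median of 0.06, and of 16 genes of G2 and M phase none did. Lsm1, a decapping activator of the RNA decay list, passed at -0.48 (limma adjusted p = 0.0154) and was also higher in CM-Het than in Control (log2 0.33, limma adjusted p = 0.0289). Mean log2 signal of the S phase list was 9.83 to 9.87 on beadchip 1 and 9.79 to 9.90 on beadchips 2 and 3.

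Linker histone and further core histone genes outside the symbol pattern, listed after the values were seen, gave 6 detected genes with a median interaction of -0.51 and none called. Of these, 4 lay below 0, among them H1f1 at -0.94, H1f5 at -0.71 and H4f16 at -0.97. The other 2 lay above 0, with H1f3 highest at 0.38. Heart muscle markers lay opposite in the interaction, with 14 of 14 above 0 and a median of 1.75 and none passing (6 at an unadjusted p under 0.05, against 7.55% of all probes on that side). Primitive erythroid markers had 8 of 10 above 0, with a median of 0.50 and none passing. The part of these markers in the histone values was not tested.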

How the data were processed

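Bead array signals of total RNA from 14 mouse embryo head samples were used. Per the file headers, the authors deposited a linear intensity and a detection p-value for each probe and array, and per the labels RNA was biotin-labelled by standard Illumina protocols. How images were read and beads summarised is not stated in these sources. How far this labelling reaches mRNAs that lack a poly(A) tail was not tested. The deposited detection p-values did not stand on the rows of their intensities (rank correlation -0.105 to -0.095 in each array), so they were put back by rank within the array. The deposited log2 value table lay within 0.0379 of quantile-normalized log2 intensities and served as an alternative, with its background handling unstated.

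Intensities were background corrected, quantile normalized and taken to log2 with neqc of limma 3.58.1 (R 4.3.3, offset 16). Probes with a detection p under 0.05 on 3 or more arrays (21100 of 45281) were fitted with limma (lmFit, eBayes with trend) on genotype means over all 14 arrays, with Benjamini-Hochberg adjustment over all of them and a threshold of 0.05. The number of arrays limits the precision. No 2 arrays held identical values. Of the probes, 34885 carry 1 gene symbol, 18 several and 10378 none, and all 78 histone probes match RefSeq symbols. Sequences are from RefSeq, GRCm38.p6. The fit was tested on simulated data.

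Every array value is given for histone probes that passed in any comparison, the brightest probe of each class, and the 3 highest and 3 lowest in the CM-CKO comparisons and the interaction; H4c9 was added after its values were seen. From gene lists, the S phase and RNA decay genes that passed are named, as is Twist1, and a few others were named after their values were seen. Further genes that passed in some comparison, on the lists of cell cycle exit, head mesenchyme and primitive erythroid cells, are not named. The members and lists were chosen with earlier results of these data known. The replicate numbers of the labels did not pair samples: deviations of same-numbered samples correlated at -0.21 to 0.19 over 19 pairs of samples, 1 of them over 0.1. Alternatives were other normalizations, filters, beadchip and replicate blocks, and fits without single arrays. Splits by array signal were added after seeing the data.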

Additional observations from a re-analysis of the deposited data

Results flagged for a closer look

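In groups of 4 arrays, 6 of 132 had 1 array far from the others, where chance gives about 5%, and groups of 3 arrays were not examined in this way. CM-CKO 2 was the array in 3 of them. It read 7.48 for H4c9 (the other CM-CKO arrays 8.52 to 8.65), 6.74 for H4c18 on ILMN_2597653 (7.83 to 7.93) and 7.24 for H4c18 on ILMN_2937548 (6.62 to 6.67), low on the first pair and high on the last. CM-CKO 3 read 9.54 for H3c1, against 9.25 to 9.28. Control 4 read 5.96 for H4c6 on ILMN_1230265, against 7.16 to 7.39, and 13.44 for H2ac12 on ILMN_1246108, against 13.37 to 13.38.

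The effect of Cre differed between heads with and without the deleted allele, by limma's interaction term, for 18 probes. For H4 these were H4c18 (-2.00), H4c12 (-2.00 on ILMN_2525570 and -1.81 on ILMN_1243654), H4c6 (-1.85), H4c1 (-1.28), H4c8 (-1.26), H4c2 (-1.15) and H4c11 (-1.04), on the log2 scale. For H2B they were H2bc12 (-1.92), H2bc18 (-1.61), H2bc21 (-1.42), H2bc15 (-1.35), H2bc11 (-1.07), H2bc14 (-1.04) and H2bc6 (-0.99). The rest were H2ac18 (-1.50), H2ac19 (-1.27) and H3c7 (-1.19). Interaction and beadchip cannot be told apart for any of them.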

How the results depend on the processing

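The 6 probes that passed in CM-Het against Control and the 18 in the interaction kept their direction in every setting in which they were fitted. Among summary values under alternatives, 483 stayed close to their main value and 57 moved. The submitters' value table gave smaller medians for CM-Het against Control (0.22), Het against Control (0.24) and the interaction (-0.42). Median scaling without quantile normalization gave 0.62, 0.61 and -1.09, and a median of 0.31 between the CM-CKO arrays of beadchips 3 and 2. It gave 15 calls in Het against Control and 37 in the interaction, where 2.74% of all probes passed. Without a filter on dim probes the medians of CM-Het against Control and of the interaction were 0.22 and -0.40, and 2 probes passed in Het against Control. The deposited order of detection p-values, chosen after seeing the data like the 2 joint omissions below, left 46 histone probes with 2 calls in CM-Het against Control and medians of 0.23 and -0.53. The brightest probe of each gene gave 3 and 9 calls in CM-Het against Control and the interaction, beadchip as a random block 13 and 38 (14 in Het against Control), and CM-CKO arrays of beadchip 2 only 3 and 10. In the interaction, 1.00%, 6.41% and 1.16% of all tested probes passed in these settings, in that order. CM-CKO arrays of beadchip 3 only gave 6 calls in the interaction (0.251% of all probes), and eBayes without trend 0 in CM-Het against Control. The cause of these moves was not tested. With the replicate block, CM-Het against Control had 0 calls and the interaction 5, though the numbers mark no shared source. For CM-Het against Control and Het against Control, shares of all probes called in these settings are not given. Their counts therefore show nothing particular to histone probes.

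Without CM-Het 1, Het 2 and Het 3 together, Het 1 was the only Het array, so only medians are given. They were -0.11 for CM-CKO against Het, -0.0950 for CM-CKO against CM-Het and 0.22 for CM-Het against Control. Het against Control had 0.20 and the interaction -0.30. Without CM-CKO 2 and Control 4 together, the interaction had 8 calls, where 0.536% of all probes passed. CM-Het against Control had 0 calls in that fit, with the share of all probes not given. Leaving out 1 array at a time gave 0 to 4 calls in CM-CKO against Het, 0 to 1 against CM-Het, 0 to 6 in CM-Het against Control, 0 to 6 in Het against Control and 8 to 16 in the interaction. Of all 21100 probes, 16 to 39, 9 to 40, 0 to 101, 0 to 10 and 68 to 269 passed, in the same order. The medians ran from -0.38 to -0.0950 for CM-CKO against CM-Het, 0.22 to 0.56 for CM-Het against Control and -0.21 to 0.0226 for CM-Het against Het and -0.88 to -0.56 for the interaction. The value of H4c17 in CM-CKO against Control (-0.09, not called) turned to 0.33 with CM-CKO arrays of beadchip 3 only, 0.27 without CM-CKO 2, 0.19 without Control 2 and 0.09 without Control 3, and was -0.51 without Control 4. Probes near background, such as those of H2bc18 and H2ac18, carry the least signal over background.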
